A study of Mus musculus with 27 samples.

Results

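The H3K4me1 comparison set 3 control against 3 mutant libraries of hearts dissected at E11.5 (embryonic day, mid-gestation), and its outcome was a set of 2730 genomic regions in which this mark was called lower in the mutants. Of these, 172 also stood among the 6699 regions with decreased H3K4me2 and were left aside, so that the 2558 regions described here lost H3K4me1 without a called loss of H3K4me2. They were 0.713% of the 358833 regions in which any of 3 methylation marks was called. Control hearts were *Tnnt2::Cre;Kmt2d fl/+* and mutant hearts were *Tnnt2::Cre;Kmt2d fl/fl*, both with the reporter allele *mTmG/+*, which marks cells in which Cre has acted, and both on a C57BL/6 background. The controls therefore carried Cre and 1 floxed copy of *Kmt2d* as well, and the comparison is of a loss of the remaining copy. Each genotype gave 3 pools of 30 hearts, and each pool was divided between an input and immunoprecipitations of H3K4me1, H3K4me2 and H3K4me3. *Tnnt2::Cre* acts in myocardium, whereas whole hearts also hold endocardium, epicardium, blood and other cells in which *Kmt2d* stays intact.

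Histone H3 monomethylated at lysine 4 (H3K4me1) marks enhancers and the flanks of promoters. KMT2D is among the enzymes that place it, and is known mainly for work at enhancers of genes that a cell type uses to differentiate. Promoters of active genes carry H3K4me3 at their centre, with H3K4me2 and H3K4me1 further out. In embryonic myocardium many enhancers lie in introns of the genes for ion channels, contractile proteins and transcription factors.

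The lists gave the position of each region and nothing on its level, so the size of the loss, the counts behind it and the spread between the 3 pools of a genotype could not be stated, and depth is unknown. A share in the text is a count of regions with its 95% Wilson interval, which covers counting error only, and regions of 1 gene are not independent of each other. No test across genes was made. In whole hearts, fewer cells of a type and less of the mark in each cell cannot be told apart. Each region was assigned to the protein-coding gene whose body held it (1505 regions) or otherwise to the nearest protein-coding transcription start site (TSS; 1053 regions, at a median of 35.9 kb). By this rule 1920 of 20285 genes with an assigned region carried at least 1 region with reduced H3K4me1 (9.47% of genes).

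The regions were mapped on mouse build NCBIM37 (mm9). To show what these stretches look like, the 300 bases at the middle of the widest intronic region are printed for 6 genes that recur in the results, together with 1 whole narrow region near *Tbx3*. Capitals mark matches to any of 13 short motifs of cardiac and general transcription factors, which are spelled out with their counts further on.
*Cacna1c*, chr6:118991046-118991345, + strand: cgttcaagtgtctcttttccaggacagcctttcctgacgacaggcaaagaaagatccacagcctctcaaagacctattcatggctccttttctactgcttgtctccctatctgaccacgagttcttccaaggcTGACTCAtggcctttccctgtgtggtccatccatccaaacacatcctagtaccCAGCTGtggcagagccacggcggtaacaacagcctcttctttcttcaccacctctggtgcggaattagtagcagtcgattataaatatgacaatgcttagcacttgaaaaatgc
*Casz1*, chr4:148250916-148251215, + strand: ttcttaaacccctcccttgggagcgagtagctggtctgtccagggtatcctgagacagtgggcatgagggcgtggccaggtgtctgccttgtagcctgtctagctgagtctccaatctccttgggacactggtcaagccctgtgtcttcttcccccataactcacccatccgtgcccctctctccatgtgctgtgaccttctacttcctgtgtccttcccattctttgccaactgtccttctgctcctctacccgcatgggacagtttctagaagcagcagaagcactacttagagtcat
*Prdm16*, chr4:153865656-153865955, + strand: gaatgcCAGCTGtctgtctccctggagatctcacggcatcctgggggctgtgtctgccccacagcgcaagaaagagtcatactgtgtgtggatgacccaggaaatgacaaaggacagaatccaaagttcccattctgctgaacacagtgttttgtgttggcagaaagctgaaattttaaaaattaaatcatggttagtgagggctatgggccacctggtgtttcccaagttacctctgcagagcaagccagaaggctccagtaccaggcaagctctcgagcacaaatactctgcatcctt
*Gsg1l*, chr7:133077016-133077315, + strand: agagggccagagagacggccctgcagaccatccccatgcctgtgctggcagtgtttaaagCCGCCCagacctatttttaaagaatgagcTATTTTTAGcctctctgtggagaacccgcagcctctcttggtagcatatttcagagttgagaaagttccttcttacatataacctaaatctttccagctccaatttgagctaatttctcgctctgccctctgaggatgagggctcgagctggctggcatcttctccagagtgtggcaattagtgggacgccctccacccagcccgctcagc
*Ryr2*, chr13:12159476-12159775, + strand: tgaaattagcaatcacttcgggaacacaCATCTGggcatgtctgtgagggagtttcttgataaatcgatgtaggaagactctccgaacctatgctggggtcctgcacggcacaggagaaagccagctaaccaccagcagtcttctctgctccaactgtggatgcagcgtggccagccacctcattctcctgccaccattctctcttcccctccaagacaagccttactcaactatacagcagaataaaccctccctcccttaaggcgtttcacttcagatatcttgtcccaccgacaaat
*Adcy5*, chr16:35220826-35221125, + strand: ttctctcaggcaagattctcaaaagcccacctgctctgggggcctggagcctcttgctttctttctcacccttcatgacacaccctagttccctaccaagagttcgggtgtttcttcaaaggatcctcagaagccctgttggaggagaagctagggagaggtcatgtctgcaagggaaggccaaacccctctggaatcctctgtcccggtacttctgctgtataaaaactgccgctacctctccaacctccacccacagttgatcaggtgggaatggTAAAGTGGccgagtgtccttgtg
*Tbx3*, chr5:120115666-120115725, + strand: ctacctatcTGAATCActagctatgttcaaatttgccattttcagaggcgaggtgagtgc
The windows of *Cacna1c* and *Prdm16* hold a CAGCTG E-box, that of *Gsg1l* a MEF2 motif, that of *Adcy5* an NKX2-5 motif, and that of *Casz1* none of the motifs searched. The region near *Tbx3* is 60 bp long and holds an AP-1 motif.

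Regions with reduced H3K4me1 were wide. Their median width was 1800 bp (quartiles 380 and 3580 bp, range 60 to 36520 bp), against 320 bp for all merged regions, and the list covered 7.01 Mb, or 2.27% of merged base pairs. The share called was 0.477% (0.430 to 0.529) among regions under 100 bp, 0.231% (0.207 to 0.258) from 100 to 500 bp, 0.379% (0.334 to 0.430) from 500 to 1000 bp and 1.08% (0.982 to 1.18) from 1 to 2 kb. It then reached 2.39% (2.21 to 2.58) from 2 to 4 kb, 3.65% (3.31 to 4.01) from 4 to 8 kb and 5.12% (4.40 to 5.96) from 8 kb upwards. From 100 bp upwards each wider class thus had the higher share, while the narrowest class lay above the next. The 357 regions under 100 bp stood apart in place as well. Only 6 of them (1.68%) had another region of the list within 10 kb, at a median gap of 402 kb, whereas 47 of the 156 regions of at least 8 kb (30.1%) did, at a median gap of 27.6 kb. Merged regions can include those called for H3K4me2 or H3K4me3 alone. Whether wide regions were called more often because they hold more reads was not tested.

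Beside regions of like width, the wide regions were more often held whole in a gene body and lay less often near a TSS. Even so, 28.8% of those of at least 8 kb held a TSS, against 48.5% of regions on neither list. Of all 2558, 58.8% (56.9 to 60.7) were held in a gene body, 43.9% were intronic without an exon, 15.1% came within 5 kb of a TSS and 5.47% held a TSS. The same shares were 47.3%, 38.7%, 12.6% and 3.38% for 349576 regions on neither list, and 21.1%, 12.9%, 64.9% and 60.6% for the 6527 regions with decreased H3K4me2 only. Set beside regions of the same width, the shares held whole in a gene body parted from about 1 kb upwards and those near a TSS from 2 kb. Between 2 and 4 kb, 66.8% (63.0 to 70.4) of called regions were held in a gene body against 49.3% of regions on neither list, and 12.9% (10.5 to 15.8) against 26.3% came within 5 kb of a TSS. At 8 kb and above the shares held in a gene body were 73.1% (65.6 to 79.4) and 48.7%, and the shares within 5 kb of a TSS 36.5% (29.4 to 44.3) and 53.1%. A region that crosses the edge of a gene is not held in it. By any overlap with a gene body, the shares were 73.6% (70.1 to 76.9) against 66.5% from 2 to 4 kb. They were 78.7% (74.4 to 82.4) against 78.3% from 4 to 8 kb and 89.7% (84.0 to 93.6) against 88.0% from 8 kb upwards. Under 100 bp the shares held in a gene body were 45.4% (40.3 to 50.6) and 43.5%, where the interval holds the value of the other regions. Within genes, 21.4% (19.5 to 23.4) of the called regions lay in the last 20% of the body or crossed its end, against 20.4% of regions on neither list. At matched width this share was 23.6% (19.99 to 27.7) against 16.8% from 2 to 4 kb and 23.9% (19.5 to 28.9) against 15.2% from 4 to 8 kb, but 14 of 140 regions against 16.1% from 8 kb upwards. Of called regions inside a single intron 34.1% lay in intron 1, against 28.6%. At matched width it was found from 100 to 500 bp, with 35.4% (27.7 to 44.1) against 26.2%, but not in the classes from 500 bp to 8 kb, with 28.4% (20.8 to 37.5) against 30.3% from 500 to 1000 bp, 28.8% (23.3 to 35.1) against 34.1% from 1 to 2 kb, 37.2% (31.8 to 42.9) against 39.0% from 2 to 4 kb and 40.1% (33.3 to 47.3) against 43.0% from 4 to 8 kb.

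**Figure D1:**
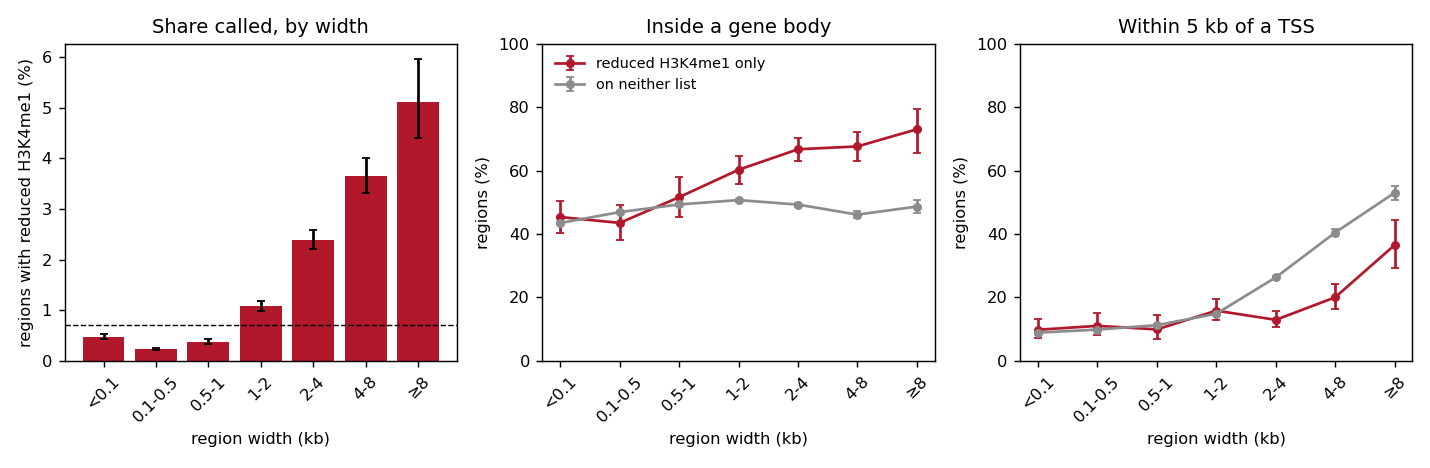
Left, share (%) of merged regions called with reduced H3K4me1 only, by region width (kb), with 95% Wilson intervals; the dashed line is the share over all regions, 0.713%. Middle and right, share (%) of called regions (red) and of regions on neither list (grey) that were held in a gene body or came within 5 kb of a TSS; the 2 sets part from about 1 kb for gene bodies and from 2 kb for TSS.

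Most genes carried a single region. Among the 1920 genes, 1556 had 1 region, 237 had 2 and 127 had 3 or more. Those 127 genes held 528 regions, or 20.6% of the list. They were long, with a median length of 181 kb and a median of 59 merged regions, against 16.4 kb and 7 for genes without a called region. The share called per region was 0.583% for genes under 20 kb, 0.830% for genes of 50 to 100 kb and 0.599% for genes of at least 300 kb. Among regions of at least 2 kb it was 1.84% for genes under 20 kb, 3.72% for genes of 50 to 100 kb and 3.37% for genes of at least 300 kb. The leading genes described next were ranked by their number of called regions, so that a high share called is in part built in.

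*Cacna1c*, the pore-forming subunit of the L-type calcium channel of cardiomyocytes, carried the most regions, 19 of its 142 merged regions (13.4%), which spanned 97.1 kb in all or 34.5% of its merged base pairs. All 19 lay within introns, none held an exon or a TSS, and 16 of them lay in intron 3. A run of 15 of these stood within 183 kb of that intron, at chr6:118733206-118916205, where 50 merged regions were found and none had decreased H3K4me2. Their widths ran from 880 bp to 10560 bp, and the widest region of the gene, 11980 bp, lay further upstream in the same intron at chr6:118985206-118997185. The remaining 3 were in intron 1. The gene's only region with decreased H3K4me2 lay outside this run. Such a loss was called in 1.87% of all merged regions, so 0 of 50 cannot be told from that share.

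*Casz1*, a zinc finger transcription factor needed for cardiomyocyte proliferation and heart formation, carried 13 of 47 regions (27.7%), and these held 108.18 kb or 69.6% of its merged base pairs. They began 67.5 kb before the gene, ran over its first start site in a region of 17860 bp, and ended with 2 regions of 19300 and 21540 bp that each held an internal TSS. No region of the gene had decreased H3K4me2, and 47 regions are too few to tell this from the 1.87% of all regions. *Prdm16*, a zinc finger and SET domain factor of compact myocardium, carried 12 of 82 regions (14.6%), each between 2120 and 8480 bp and all inside the gene. Of these 7 lay in intron 1, the closest to a TSS being 4.58 kb away, and again none had decreased H3K4me2. *Gsg1l*, which encodes an auxiliary subunit of AMPA-type glutamate receptors, carried 9 of 59 regions (15.3%), and all 9 were intronic. At these 3 loci the regions stood 14 together over 256 kb (with 1 assigned to the neighbour *Gm572*), 12 over 225 kb and 9 over 164 kb, the last with part of its regions assigned to *D430042O09Rik*.

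*Ryr2*, the calcium release channel of the sarcoplasmic reticulum, carried 6 of 198 regions (3.03%). A region 19000 bp wide, at chr13:12180646-12199645, held the TSS, and the other 5 lay in introns 1 and 2. *Adcy5*, a cardiac adenylyl cyclase, carried 6 of 52. A run of 4 neighbouring regions of 3820, 7360, 14060 and 7160 bp filled most of chr16:35198666-35235805 in intron 1, and a region with decreased H3K4me2 stood over the start of the gene, where H3K4me1 was not called lower. *Asb2*, a subunit of a ubiquitin ligase that degrades filamins, carried 6 of only 18 regions (33.3%), the highest share of any gene with 10 or more merged regions. *Slc6a6*, the taurine transporter, carried 6 of 34 (17.6%), 5 of them upstream of the gene at 8.56 to 63.4 kb. *Tbx3*, a repressor of the working myocardial programme in the conduction system, carried 7 of 146 (4.79%), all outside its short body and 5 of them between 292 and 518 kb away, so that their link to the gene rests on distance alone.

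Regions at the remaining leading genes were in part very wide. *Msi2*, an RNA-binding protein, *Sorcs2*, a sortilin family receptor, and *Nav2*, a cytoskeletal guidance factor, each carried 7 (8.97%, 7.22% and 4.79% of their regions). *Tspan9*, *Tns1* (tensin 1, which links integrins to actin), *Sipa1l2* and *Fhod3*, a formin of the sarcomere, each carried 6, and *Plekha7*, *Sulf2* and *Fndc3b* each carried 5. At *Sipa1l2* a run of 5 regions held every merged region of a 78.3 kb stretch, and the widest of them, at 32920 bp, lay 10.2 kb before the TSS. The widest of all, 36520 bp, was at *Dab2ip*, a Ras GTPase-activating protein, which held another of 26500 bp. Besides these and that of *Sipa1l2*, the 10 widest lay at *Ccdc85c* (30440 bp), *Tns1* (28380 bp), *Rai1* (27580 bp), *Sh3pxd2a* (25900 bp), *Gse1* (25860 bp), *Plekha7* (25120 bp) and *Pmepa1* (24340 bp). Besides *Asb2* and *Casz1*, the highest shares belonged to *Ccdc85c* and the laminin chain *Lama5* (both 3 of 10, 30.0%) and to the T-type calcium channel *Cacna1h* (3 of 11, 27.3%). A count of 15 for *Gm20388* is of little meaning, since this model spans 4.43 Mb and 72 other coding genes. The annotation also gives *Fgfr2* a body of 3.01 Mb with 31 other coding genes inside, to which 3 regions were assigned.

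**Figure D2:**
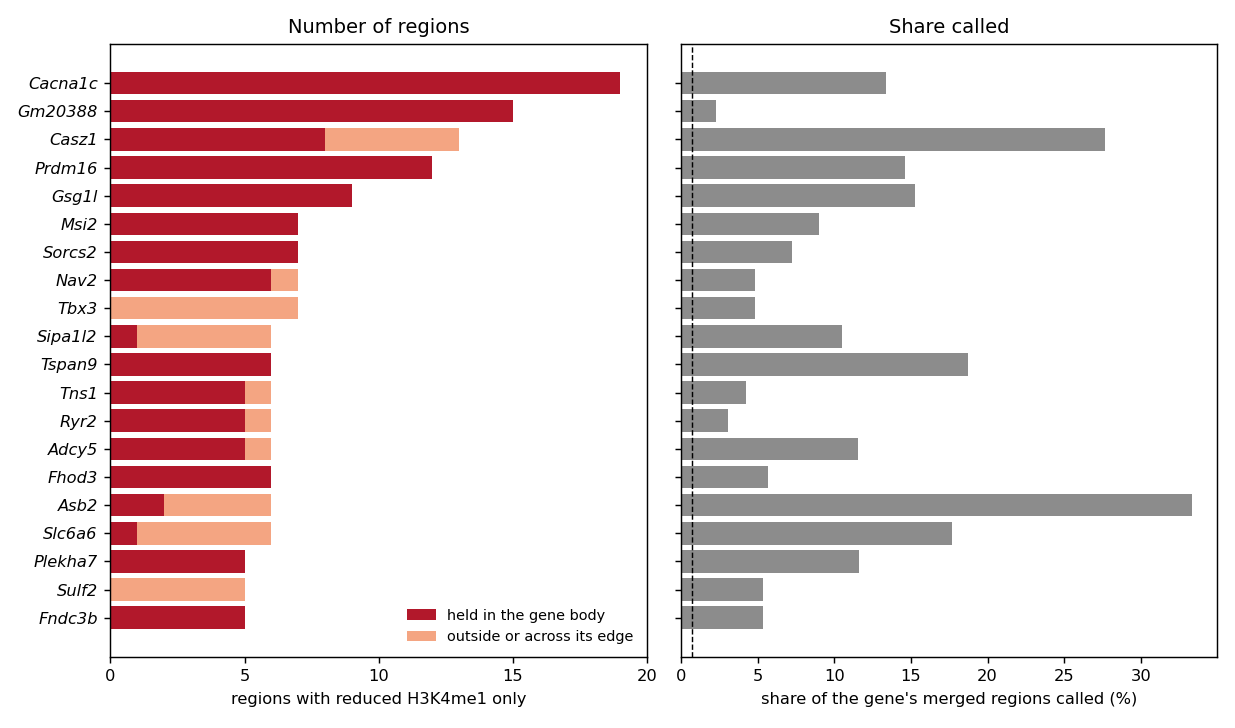
The 20 protein-coding genes with the most regions of reduced H3K4me1 only. Left, number of regions, held in the gene body (dark red) or outside it or across its edge (light red), from 19 at *Cacna1c* to 5 at *Fndc3b*; right, share (%) of the gene's merged regions that was called, with the share over all regions (0.713%) as a dashed line.

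**Figure D3:**
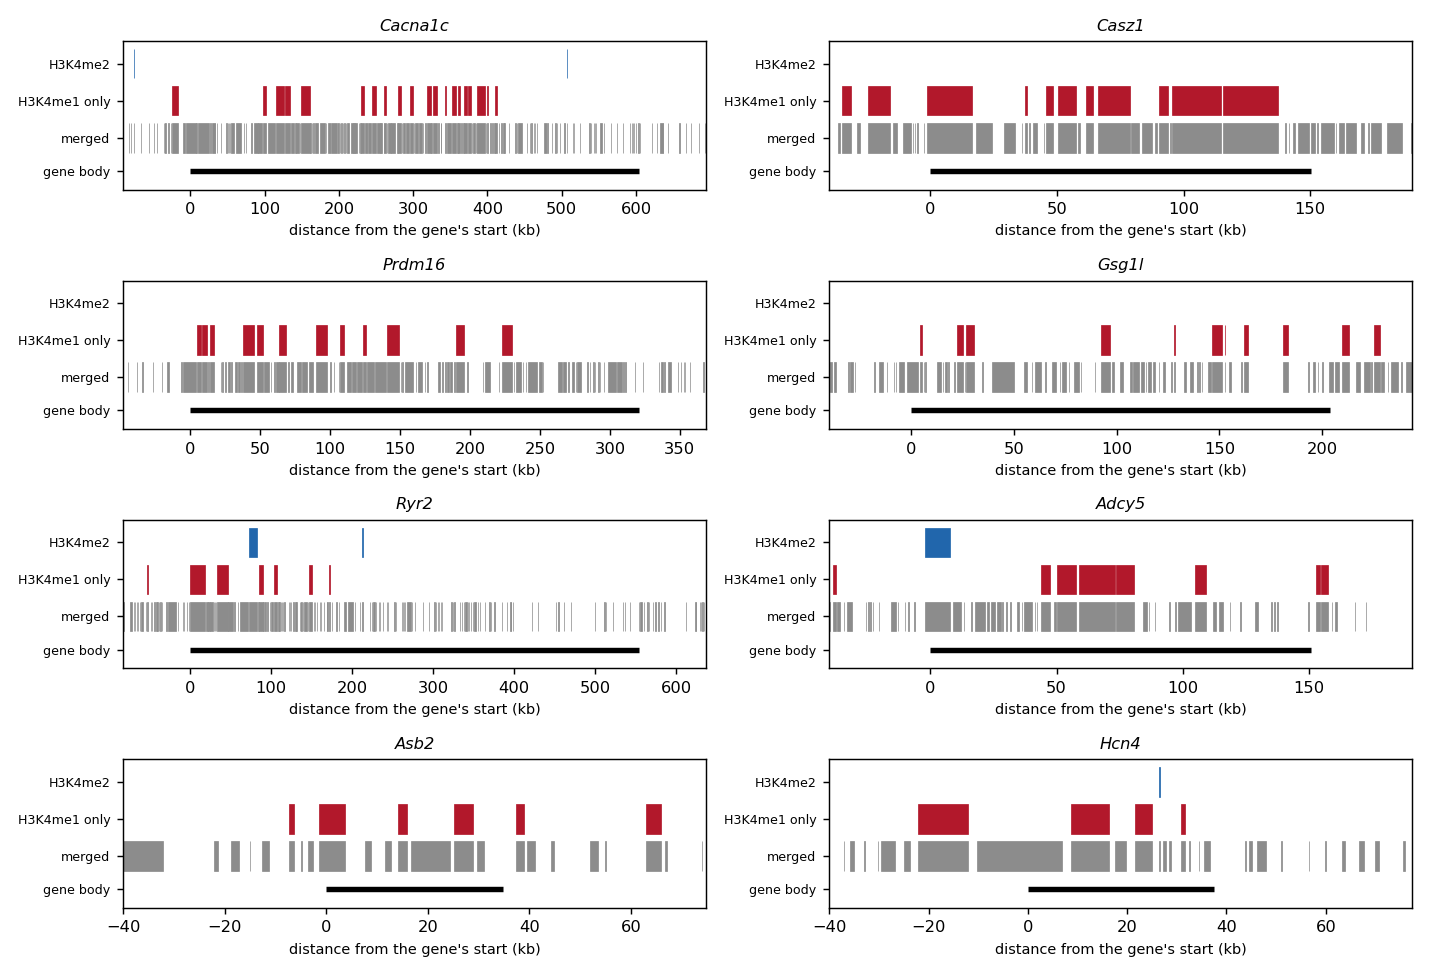
Merged regions (grey), regions with reduced H3K4me1 only (red) and regions with decreased H3K4me2 (blue) around 8 genes, drawn to scale by distance (kb) from the annotated start, in the direction of transcription; the black bar is the gene body, and regions assigned to neighbouring genes are drawn too. In *Cacna1c* the red regions fall in introns, as do 11 of 12 in *Prdm16*. In *Adcy5* the blue region lies over the start, with the red ones inside the gene downstream of it.

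Chained over gaps of up to 50 kb, the regions formed 2034 loci, of which 1718 held 1 region and 49 held 4 or more. These 49 held 259 regions (10.1% of the list), with a median span of 86.5 kb, and 39 of them contained no region with decreased H3K4me2. Of all merged regions 1.87% had decreased H3K4me2, so loci with few merged regions can hold none at that share. The chained regions themselves could not have it, since regions on both lists were left out. After the loci named so far, the next by number were *Kcnk3* with *Cib4* and *4930471M23Rik* (7 of 45 merged regions) and *Slc6a6* with *Lsm3* (7 of 32). *Kcnk3* encodes a background potassium channel, and its own 2 regions lay 8.84 kb before its start and in its intron.

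Among 31 lists of genes, ion channels carried the highest share of the loss. Of 1454 regions assigned to 38 genes for cardiac ion channels and connexins, 54 were called, or 3.71% (2.86 to 4.81) against 0.713% of all regions. Of these genes, 17 (44.7%) carried at least 1 region, against 9.47% of all genes. The 2 sets were not matched for length, and over all genes this share was 4.61% under 20 kb and 31.25% from 300 kb upwards. Without *Cacna1c* the share of regions called was 2.67% (35 of 1312). Among regions of at least 2 kb it was 18.4%, against 2.94% of all regions of that width. Of the 54 regions, 39 lay within a single intron and 5 held a TSS. In the same list 16 regions (1.10%) had decreased H3K4me2, against 1.87% of all regions.

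The channel genes covered several currents. Besides *Cacna1c* and *Cacna1h*, calcium channel regions lay at the auxiliary subunit genes *Cacna2d2* (4 of 38), *Cacna2d1*, *Cacnb2* and *Cacnb3* (1 each) and at the pacemaker L-type channel *Cacna1d* (2). *Hcn4*, the pacemaker channel of the sinoatrial node, carried 4 of 22, with 1 region of 10020 bp lying 12.03 kb before its start and 3 in introns 1 to 3. *Kcnq1*, which carries the slow delayed rectifier current, had 5 of 76 spread from intron 1 to intron 15, and its partner subunit *Kcne1* had 1. *Kcnh2*, of the rapid delayed rectifier, had 2, 1 of them over a TSS. *Abcc8*, a subunit of ATP-sensitive potassium channels, had 3, and *Gja5*, the connexin of atrium and conduction system, had 1. Over the whole family of voltage-gated calcium channels 36 of 1139 regions were called (3.16%), or 1.71% (17 of 997) without *Cacna1c*. All potassium channels of the genome had 21 of 3104 (0.677%), close to all regions, but 6.06% among regions of at least 2 kb, against 2.94% of all such regions, and transient receptor potential channels had 1 of 613 (0.163%).

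Contractile and calcium handling genes followed. Sarcomere and Z-disc genes had 25 of 1057 regions called, or 2.37% (1.61 to 3.47), at 19 of 46 genes. Apart from *Fhod3* with 6 and *Ldb3*, a Z-disc protein, with 2, each of the 19 genes had a single region. These were spread over thick filament genes (*Mybpc3*, *Myl2*, *Myl3*, *Myom1*, *Myh7b*), thin filament genes (*Tpm1*, *Tnni1*) and Z-disc genes (*Actn2*, *Nebl*, *Mypn*), with widths of up to 10400 bp. The regions of *Mybpc3*, *Mypn* and *Nebl* were 60, 80 and 120 bp wide, and that of *Nebl* lay 286 kb from its TSS. Sarcoplasmic reticulum and calcium handling genes had 20 of 1053, or 1.90% (1.23 to 2.92), at 9 of 28 genes. After *Ryr2* these were *Camk2b* (3), the calcium pump *Atp2a2* (2, both before its start at 6.80 and 20.5 kb), *Jph2*, which holds the reticulum to the surface membrane (2), *Camk2a* and *Camk2d* (2 each), and *Asph*, *Casq2* and the sodium-calcium exchanger *Slc8a1* (1 each). The region given to *Slc8a1* was 60 bp wide and lay 506 kb from its TSS. Genes of smooth muscle and myocardin had 11 of 578 (1.90%, 1.07 to 3.38). This list shares *Des*, *Tpm1*, *Myocd*, *Mkl1* and *Mkl2* with those of the sarcomere and of cardiac transcription factors, and the smooth muscle markers *Acta2*, *Tagln* and *Myh11* were at 0 of 24 merged regions, too few to tell from the 0.713% of all regions. Focal adhesion and actin regulators had 27 of 1841 (1.47%, 1.01 to 2.13), led by *Tns1*.

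Cardiac transcription factors had 39 of 1783 regions called, or 2.19% (1.60 to 2.98), at 15 of 28 genes, and 1.59% without *Prdm16*. None of the 39 held a TSS. *Tbx5*, a T-box factor of atria and left ventricle, had 3, of which 2 of 7740 and 6380 bp lay in its introns 7 and 8. *Irx4*, a ventricular homeobox gene, and *Gata5* each had 2, all outside the gene body at 15.0 to 31.7 kb. *Tead1*, *Mkl1* and the co-activator *Myocd* had 2 each. *Gata4* had 1 of 2400 bp in intron 2, *Nkx2-5* had 1 lying 27.3 kb from its start, and *Hand1* had 1 at 11.46 kb. T-box factors as a family had 10 of 495 (2.02%), all of them at *Tbx3* and *Tbx5* among 13 genes, and 0.860% without *Tbx3*.

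The 7 marker genes of the cardiomyocyte held 119 merged regions, of which 1 was called (0.840%), close to the 0.713% of all regions. All 7 (*Tnnt2*, *Myh6*, *Myh7*, *Actc1*, *Myl7*, *Nkx2-5* and *Ttn*) had a merged region over the TSS, and for 6 of them it was between 12960 and 22900 bp wide. None of those regions was called for H3K4me1, those of *Actc1* and *Nkx2-5* were called for H3K4me2, and of the 7 genes *Nkx2-5* alone carried a region with reduced H3K4me1. Endothelial genes had 4 of 1127 (0.355%, 0.138 to 0.909, which holds the share of all regions), namely 1 region each at *Egfl7*, *Pecam1*, *Cdh5* and *Nfatc1*. The 5 endothelial markers alone had 3 of 288 (1.04%), at 3 genes. The region given to *Cdh5* was 249 kb away and that of *Nfatc1* was 80 bp wide. Epicardial and fibroblast genes had 5 of 706 (0.708%), with the epicardial markers *Wt1*, *Tbx18* and *Upk3b* at 0 of 121. Macrophage and leukocyte genes had 0 of 150 (interval up to 2.497%) and liver and gut genes 0 of 356 (up to 1.07%). Neuron and neural crest genes had 7 of 1799 (0.389%), with a median width of 120 bp. Globin and erythroid genes had 4 of 300 (1.33%), all at *Bcl11a*, and *Gata1*, *Hbb-bh1* and *Alas2* were at 0 of 18. A merged region covered a TSS of every marker of endothelial, epicardial, smooth muscle, erythroid and neuronal cells, of 1 of 2 macrophage markers and of neither hepatic marker. The macrophage region, at *Cx3cr1*, was 160 bp wide. A merged region over a TSS does not show that the cell type was present. Whether the number of any of these cells differed between control and mutant hearts was not tested.

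The signalling lists lay nearer to all regions. *Bmp7* gave 5 of the 18 called among 2022 regions of TGF-beta and BMP genes (0.890%), and it carried a run of 5 that made up 5 of the 10 merged regions over its end and introns. *Igf1r* and *Nrg2* had 2 each among 16 of 1618 for neuregulin, Fgf and Igf signalling (0.989%), and *Erbb2* had 1. Notch genes had 9 of 817 (1.10%), with 2 each at the ligands *Jag1* and *Jag2*. Wnt genes had 15 of 2004 (0.749%), led in width by *Dkk3* (2 regions, 23.96 kb in all) and *Ror2* (3). Adrenergic and cAMP genes had 16 of 2130 (0.751%), or 0.481% without *Adcy5*. Hippo genes had 7 of 909 (0.770%), retinoic acid genes 3 of 481 (0.624%), axon guidance genes 25 of 3942 (0.634%) and extracellular matrix genes 13 of 1911 (0.680%). For all 9 of these lists the interval held the share of all regions.

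Of 7 metabolic, structural and related lists, the interval lay above the share of all regions for hypoxia and glycolysis genes and held it for the other 6. Hypoxia and glycolysis genes had 9 of 618, or 1.46% (0.768 to 2.74), each at a different gene, among them lactate dehydrogenase *Ldha* (8980 bp), the carbonic anhydrase *Car9* (5300 bp), hexokinase *Hk2* and *Egln1*, which marks HIF for destruction. Sodium pump and exchanger genes had 11 of 907 (1.21%), with 3 at *Atp1b1*, a pump subunit. Fatty acid oxidation genes had 10 of 853 (1.17%), and here the 5 genes were regulators (*Esrrg*, *Esrrb*, *Ppargc1b*, *Rxra*) and the fatty acid synthesis enzyme *Acaca*, with none of the oxidation enzymes. Imprinted genes had 8 of 695 (1.15%), 5 of them at *Kcnq1*. Natriuretic peptide and calcineurin genes had 7 of 731 (0.958%), including 1 of 4680 bp at *Nppb*, the B-type natriuretic peptide. Intercalated disc genes had 9 of 1030 (0.874%), including a region of 18700 bp at plakoglobin (*Jup*), and dystrophin complex genes had 8 of 942 (0.849%), 3 of them at *Dysf*.

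**Figure D4:**
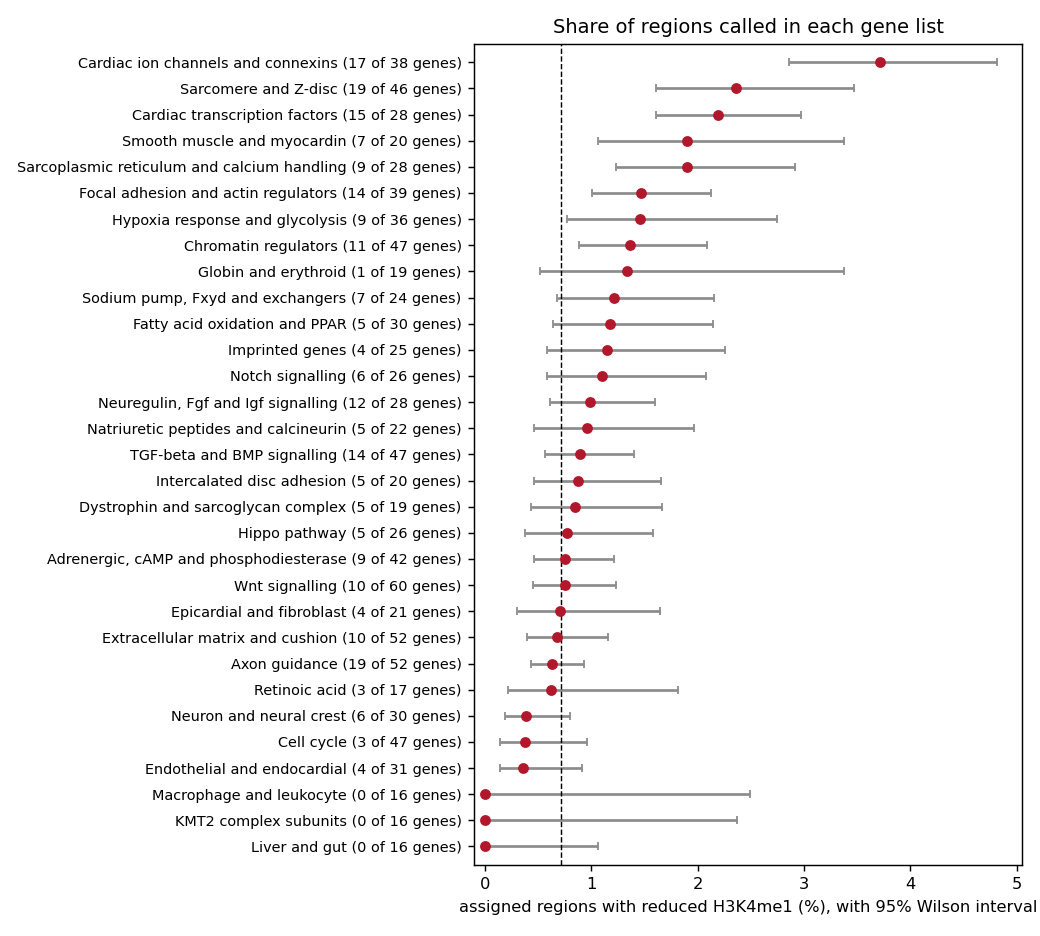
Share (%) of assigned regions with reduced H3K4me1 only in 31 gene lists, with 95% Wilson intervals and, in brackets, how many genes of the list carried a called region. The dashed line is the share over all regions (0.713%); the intervals of 8 lists lie wholly above it, from ion channels at 3.71% to chromatin regulators at 1.36%, and 3 lists are at 0.

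Chromatin regulators had 20 of 1471 regions called, or 1.36% (0.882 to 2.09), at 11 genes, with 4 at *Arid1b*, 3 at the DNA methyltransferase *Dnmt3a*, 2 at *Gse1* and 1 of 14160 bp at *Chd7*. The subunits of the KMT2 methyltransferase complexes had 0 of 158 (interval up to 2.37%, which holds the share of all regions). Decreased H3K4me2 was called in 7 of these regions (4.43%), against 1.87% of all regions. *Kmt2d*, listed under its older name *Mll2*, had 10 merged regions of which none was called for either mark. This says nothing on whether the gene was deleted, since the assay measures a mark and the deleted exons are not told apart in these lists. Cell cycle genes had 4 of 1064 (0.376%, 0.146 to 0.963, which holds the share of all regions too) at 3 of 47 genes, namely the inhibitor *Cdkn1a* (2), *E2f8* and *Myc*. Of the regions of the cell cycle genes 27 (2.54%) had decreased H3K4me2, beside the 1.87% of all regions. For histone genes 0 of 134 regions (interval up to 2.79%) had reduced H3K4me1 and 24 (17.9%) had decreased H3K4me2.

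Over 51 gene families named by symbol, the share ran from 0 to 3.16% with a median of 0.691%. The interval lay above the share of all regions in 6 families and below it in 3. Besides channels and T-box factors, higher shares were found for adenylate and guanylate cyclases (8 of 516, 1.55%, with 6 at *Adcy5* and 0.431% without that gene), protein kinase C and diacylglycerol kinases (13 of 892, 1.46%, with 4 at *Prkce* and 1.18% without it) and myosins (15 of 1148, 1.31%). Of the myosin regions 5 were at *Myo18b*, whose product helps to build the sarcomere, and without it the share was 0.904%. The 3 families below were protocadherins with 1 of 1027 (0.0974%, 0.0172 to 0.549), ephrins and their receptors with 4 of 1483 (0.270%, 0.105 to 0.691) and zinc finger proteins with 21 of 4617 (0.455%, 0.298 to 0.694). Kruppel-like factors had 2 of 916 (0.218%), ribosomal proteins 2 of 670 (0.299%), Sox factors 4 of 1183 (0.338%) and Hox genes 0 of 177. For each of the latter the interval held the share of all regions. Olfactory receptor genes, which are silent in heart, had 8 of 1764 (0.454%, 0.230 to 0.892, which holds it too). Among regions of at least 500 bp they had 1 of 284 (0.352%), against 1.28% of all such regions.

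At the level of genes, the overlap between the losses of both marks followed the number of merged regions of a gene. Of the 1920 genes with reduced H3K4me1, 791 (41.2%) also carried a region with decreased H3K4me2, against 27.5% of all genes. These were 14.2% of the 5584 genes with decreased H3K4me2, where 9.47% of all genes had reduced H3K4me1. In genes with a like number of merged regions the shares lay closer together or the other way round. With 16 to 50 merged regions, 40.8% of 796 genes with and 39.2% of 3563 genes without reduced H3K4me1 had a region with decreased H3K4me2. With 51 or more the shares were 60.5% and 56.3%. With 6 to 15 the counts were 100 of 400 and 1537 of 5539 genes, and with up to 5 the shares were 8.63% and 14.8%. Of the 127 genes with 3 or more called regions, 60 had no region with decreased H3K4me2.

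In base composition, called regions were richer in G and C than regions on neither list, at 48.7% ± 5.69 (SD over 2558 regions) against 45.1% ± 6.90. The gap was seen in every width class, from 44.5% against 43.7% under 100 bp to 49.8% against 47.4% from 2 to 4 kb. CpG sites did not follow this in every class. They were more frequent under 100 bp (0.949 per 100 bp against 0.902) and less frequent from 1 kb upwards. From 2 to 4 kb, called regions had 1.35 CpG per 100 bp against 1.65, and from 8 kb upwards 1.46 against 1.67.

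Motifs were searched on both strands in the middle 500 bp of the 1884 called regions of at least 500 bp, and in 139712 regions of that width on neither list. The called windows held more G and C, at 49.97% against 46.35%, and the motif shares were not matched for base composition. A MEF2 motif (CTAAAAATA), bound by a factor family of muscle genes, was found in 58 called windows, or 3.08% (2.39 to 3.96), against 1.68%. The CAGCTG E-box, of the type bound by myogenic and related bHLH factors, was found in 32.4% (30.4 to 34.6) against 26.7%, and the CATCTG E-box of HAND factors in 37.6% (35.5 to 39.8) against 35.4%. SP motifs (GGGCGG) stood at 12.6% (11.2 to 14.2) against 10.8%. The AP-1 motif (TGANTCA) was less frequent, at 12.7% (11.3 to 14.3) against 15.8%, and so was the TEAD motif (ACATTCC), at 7.17% (6.09 to 8.42) against 8.74%. For the other 7 motifs the interval held the value of the other regions. These were the motif of GATA factors (AGATAAG, 8.70% against 9.63%), NKX2-5 (TNAAGTGG, 7.80% against 7.43%), T-box (AGGTGTGA, 2.55% against 2.30%), the CArG box of SRF (2.55% against 2.75%), MEIS (TTGACAG, 8.01% against 8.02%), ETS (CCGGAAG, 2.60% against 2.95%) and RUNX (TGTGGTT, 10.1% against 10.4%).

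These shares depended on which regions were set side by side. Among wholly intronic regions the MEF2 motif was in 30 of 838 called windows, or 3.58% (2.52 to 5.06), against 1.79%, but from 2 to 8 kb the values were 2.15% (1.42 to 3.23) and 1.48%, where the interval holds both. The CAGCTG E-box stood at 31.2% (28.5 to 34.1) against 26.9% from 2 to 8 kb and at 28.9% (25.9 to 32.0) against 25.7% in introns. SP motifs turned from higher to lower from 2 to 8 kb, with 12.4% (10.5 to 14.5) against 16.7%, and were higher in introns, with 10.9% (8.93 to 13.1) against 6.88%. The HAND E-box was in 35.8% of called and of other windows in introns, but in 38.6% (35.7 to 41.7) against 33.8% from 2 to 8 kb. For AP-1 and TEAD the interval held the value of the other regions from 2 to 8 kb, with 13.2% (11.2 to 15.4) against 13.9% and 6.34% (5.01 to 8.003) against 7.98%, and it did so for both in windows of 1000 bp. In introns AP-1 was lower, at 12.2% (10.1 to 14.6) against 16.3%, while the interval of TEAD held the other value. ETS was lower from 2 to 8 kb, at 2.54% (1.74 to 3.69) against 4.00%, and in 1000 bp windows, at 4.81% (3.88 to 5.96) against 6.47%. In introns ETS was higher, at 3.22% (2.22 to 4.65) against 2.10%. Called regions with a MEF2 motif in the middle 500 bp lay at *Casz1*, *Gsg1l*, *Fndc3b*, *Dysf*, *Ablim1*, *Esrrg*, *Atp2b4* and at 2 regions of *Fto*, among others. Over all 146880 windows the motif was in 1.67%. A match is a description of the sequence and not evidence of binding.

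**Figure D5:**
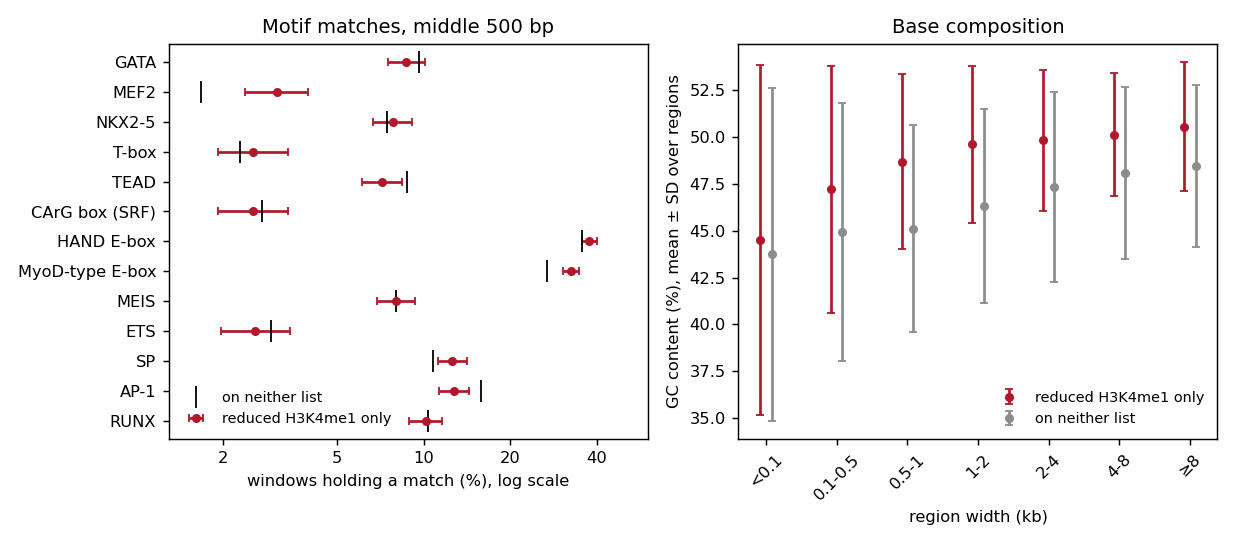
Left, share (%) of 500 bp windows with a match to each of 13 motifs, on a log scale, in called regions (red, with 95% Wilson intervals) and in regions on neither list (black ticks); the red interval lies to the right of the tick for MEF2 (3.08% against 1.68%) for both E-boxes and for SP, and to the left for AP-1 and TEAD. Right, GC content (%) by region width, mean ± SD over regions, which is higher for called regions in each class.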

How the data were processed

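H3K4me1 was measured by ChIP-Seq in 3 control and 3 mutant pools. The authors called peaks over all replicates, merged them over H3K4me1, H3K4me2 and H3K4me3 and deposited lists of regions, among them those called lower in mutant hearts at a false discovery rate under 0.1. The deposited H3K4me2 list holds more regions than the paper reports at that rate, and its overlap with the H3K4me1 list is slightly larger too. The peak caller and the test are not given in the sources used here. Submitters' processing notes name CASAVA 1.8.2, FastQC, Bowtie2, Bowtie and SAMtools. The lists used here hold positions only, with no count or signal per library, so no differential fit could be made.

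Coordinates (mm9) were matched to the NCBIM37 sequence and GENCODE vM1. Regions of the H3K4me1 list were left out where the H3K4me2 list held the same coordinates. Regions held in a coding gene body went to that gene, the others to the nearest coding TSS. Members and gene lists (31 lists, 945 of 955 symbols found, and 51 families) were chosen with earlier results of these data known. The text names *Kmt2d*, the 20 genes with the most regions, the genes of the 10 widest regions and of the 6 leading loci, up to 4 genes a list by summed width, list members at 0, and the 5 highest shares among genes with at least 10 merged regions, and further genes chosen after their values were seen. Assignment was tested on simulated data. Python 3.11.15, pandas 2.3.3 and pysam 0.24.0 were used.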

Additional observations from a re-analysis of the deposited data

How the results depend on the processing

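No paired analysis was possible because the lists used here hold no value per library, and no pool was left out in turn for the same reason. The share of merged regions called (0.713%) became 0.761% with the regions that also lost H3K4me2, 1.28% over regions of at least 500 bp and 2.27% over base pairs. Regions held in a gene body (58.8%) were 62.3% by their middle base, 64.0% with 1 bp of overlap and 64.0% from 500 bp upwards. Regions within 5 kb of a TSS (15.1%) were 16.7% from 500 bp upwards, 25.4% with TSS of all annotated transcripts and 6.37% within 1 kb. Loci with 4 or more regions (49) fell to 17 with gaps of up to 20 kb. The share late in the gene (21.4%) was 11.2% for the last 10% of the body, and the share of genes also with decreased H3K4me2 (41.2%) was 34.2% from 500 bp upwards. Of 31 lists, 21 lay above the share of all regions and 13 did so without their leading gene. The counts of genes (1378 to 1980) and of genes with 3 or more regions (104 to 129) stayed within 1.5 times the values reported, and GC content within 1 SD.

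Lists changed sides as follows, each read against the background of its setting. Without the leading gene, lower shares were found for intercalated disc (0.564%), dystrophin complex (0.568%), adrenergic (0.481%), Wnt (0.614%), TGF-beta and BMP (0.659%), Hippo (0.600%), erythroid (0, without *Bcl11a*) and imprinted genes (0.485%, without *Kcnq1*). Over base pairs (background 2.27%), neuregulin (2.13%), Notch (2.16%) and TGF-beta (2.18%) fell below and axon guidance (2.36%) rose above. From 500 bp (1.28%), Wnt (1.20%) and Hippo (1.22%) fell below and extracellular matrix (1.49%) rose above. From 2000 bp (2.94%), intercalated disc (2.92%), neuregulin (2.84%), Wnt (2.21%), TGF-beta (2.88%) and Hippo (2.78%) fell below, and epicardial (2.94%) and axon guidance (3.93%) rose above. By nearest TSS, retinoic acid (0.954%) and extracellular matrix (0.723%) rose above. The 8 lists whose intervals lay above the background did not change sides. In 1000 bp windows, MEIS (15.5%) and SP motifs (21.6%) changed sides against regions on neither list.

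The settings without the leading gene, from 2000 bp and without gene models over 2.5 Mb were chosen after the data were seen. The share of repeats was not run, since the genome copy used does not mark repeats. Without read counts, a region that was not called cannot be told from one with a smaller loss.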
